A study of Mus musculus with 6 samples.

Results

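The Krüppel-like factors (KLF) are zinc-finger transcription factors. For 9 of their genes, Klf2, Klf3, Klf4, Klf5, Klf6, Klf7, Klf9, Klf10 and Klf13, untreated and tamoxifen-treated mouse embryonic stem cells were compared. The members were taken as the probe sets whose only annotated symbol is one of these names, which gave 9 probe sets, 1 for each gene, among 19938 genes measured. All cells carried conditional Dicer alleles (Dicer Fx/Fx), which tamoxifen deletes. The untreated group had 3 arrays. The tamoxifen group had 3 arrays of cells that received tamoxifen for 3 days and were harvested 2 days later, on day 5. The labels give no collection day for the untreated cells, do not name the recombinase, and do not say how many cell lines or separate cultures were used, so p-values measure the spread between these arrays, which may be technical. They also mention tamoxifen-treated wild-type cells (E14), which were not analysed here, so effects of tamoxifen and of Dicer loss cannot be told apart.

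KLF proteins bind CACCC boxes and GC-rich elements through zinc fingers at their C-terminal end and differ in the regulatory domains before them. Klf2, Klf4 and Klf5 are the members best known in embryonic stem cells, where they sustain the naive state beside Oct4, Sox2 and Nanog, and Klf4 is one of the classical reprogramming factors. Klf3 represses transcription through the corepressor CtBP, while Klf9, Klf10 and Klf13 recruit the Sin3 corepressor complex. Dicer cuts precursors into mature microRNAs, which lower the stability and translation of the transcripts they pair with.

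The stretch before the transcription start is shown for Klf2, Klf3 and Klf7, whose tamoxifen arrays all lay above the untreated ones, and for Klf4, whose group means were nearly equal. The sequences are the 250 bases upstream of the start in RefSeq (GRCm38.p6), a table that matched 7 of the 9 members (not Klf5 and Klf10). They run 5′ to 3′ on the strand of the gene, and capitals mark matches, on either strand, to the CACCC box, to the GC box written GGGCGG, and to the consensus site of MEF2 factors.
Klf2, chr8:72318812-72319061, plus strand: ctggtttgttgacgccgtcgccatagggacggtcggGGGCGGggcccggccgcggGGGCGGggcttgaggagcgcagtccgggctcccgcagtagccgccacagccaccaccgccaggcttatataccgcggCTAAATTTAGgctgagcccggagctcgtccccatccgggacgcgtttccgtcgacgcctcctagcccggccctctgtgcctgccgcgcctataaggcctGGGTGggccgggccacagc
Klf3, chr5:64803271-64803520, plus strand: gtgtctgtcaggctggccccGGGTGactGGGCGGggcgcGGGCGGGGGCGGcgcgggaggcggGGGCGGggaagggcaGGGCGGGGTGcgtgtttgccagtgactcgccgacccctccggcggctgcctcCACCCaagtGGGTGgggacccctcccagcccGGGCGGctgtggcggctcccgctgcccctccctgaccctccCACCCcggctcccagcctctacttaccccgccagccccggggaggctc
Klf7, chr1:64121390-64121639, minus strand: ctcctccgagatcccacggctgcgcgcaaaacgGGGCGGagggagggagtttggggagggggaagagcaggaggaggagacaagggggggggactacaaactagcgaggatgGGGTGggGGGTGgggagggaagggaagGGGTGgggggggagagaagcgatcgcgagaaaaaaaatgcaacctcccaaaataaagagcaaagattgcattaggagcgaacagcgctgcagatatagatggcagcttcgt
Klf4, chr4:55532476-55532725, minus strand: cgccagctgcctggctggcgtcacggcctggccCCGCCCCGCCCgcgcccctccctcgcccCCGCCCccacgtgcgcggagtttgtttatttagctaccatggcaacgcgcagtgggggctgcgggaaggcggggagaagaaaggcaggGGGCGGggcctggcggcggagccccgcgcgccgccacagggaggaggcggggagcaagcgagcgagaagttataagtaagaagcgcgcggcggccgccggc

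The Klf2 window held 1 CACCC match, 2 GGGCGG matches and a single MEF2 match, CTAAATTTAG, whose first base lies 118 bases before the start. The Klf3 window held 5 CACCC and 6 GGGCGG matches, with 1 overlap between the motifs, the Klf7 window 3 and 1, and the Klf4 window 0 and 4. Matches that share bases were each counted. Such matches are common: of 32851 RefSeq promoter windows of this length, 52.0% held CACCC and 32.7% held GGGCGG, against 5 and 6 of the 7 KLF windows. The MEF2 consensus was found in 2.92% of all windows and in 1 of the 7, that of Klf2. A STAT-like pattern, TTCNNNGAA, was found in 7.02% of all windows and in 1 of the 7, that of Klf9. The MEF2 and STAT patterns were chosen with the sequences and the expression results in view, and a match is a run of letters, not evidence of binding.

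The arrays bore out the labels. Dicer1 (probe set 10402444) was at 11.43, 11.36 and 11.48 in the untreated arrays and at 9.53, 9.48 and 9.69 in the tamoxifen arrays on the log2 intensity scale, with no overlap (log2 change -1.85 ± 0.07 (SE), limma adjusted p = 3.61e-05). The labels do not name the deleted exons, so the probes may partly match exons that were kept. Of 8 stem cell markers, Pou5f1, Sox2, Nanog, Zfp42, Esrrb, Dppa5a, Tdgf1 and Utf1, 0 were called in limma's fit, and 3 were lower at an unadjusted p under 0.05: Utf1 (log2 change -0.26 ± 0.07, adjusted p = 0.0574), Zfp42 (-0.19 ± 0.06, 0.0876) and Tdgf1 (-0.24 ± 0.08, 0.0912). With the replicate number as a block, which takes arrays of the same number as pairs, Utf1 and Tdgf1 were called lower (limma adjusted p = 0.0193 and 0.0326). By either measure 0 of the 8 markers were higher. All tamoxifen arrays lay below the untreated ones for 4 of the 8, Zfp42, Dppa5a, Tdgf1 and Utf1, and above them for 1, Nanog. Among all genes these shares were 14.8% and 14.5%. Of all 19938 genes, 2602 were lower and 2283 higher at an unadjusted p under 0.05. The block called 9.54% of all genes lower and 7.87% higher. These arrays are of bulk RNA, in which fewer cells of a type and less RNA per cell cannot be told apart. A gene is called here when its Benjamini-Hochberg adjusted p over all 19938 genes is under 0.05, and values are log2 intensities, in which a difference of 1 is a doubling.

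Among the 9 members, Klf2 rose and the other 8 were not called. In the same fit 7.78% of all genes were called, 3.79% higher and 3.99% lower. The median log2 change of the members was 0.00, beside 0.01 for all genes. Klf2, Klf3 and Klf7, 3 of the 9, had all tamoxifen arrays above all untreated arrays and 0 had them all below. Of all genes 29.3% had no overlap, 14.5% wholly above and 14.8% wholly below. The share of members is thus near that of genes at large in either direction and larger than that wholly above. With 9 members this difference was not tested. The same 3 members, all higher, were the ones with an unadjusted p under 0.05. That level was reached by 24.5% of all genes in either direction, and by 2283 of 19938 with a higher mean. Changes of the 8 members that were not called ran from -0.13 to 0.24, and their 95% confidence intervals together spanned -0.30 to 0.43. Within groups, the standard deviation (SD) of a member ran from 0.03 to 0.19.

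**Figure D1:**
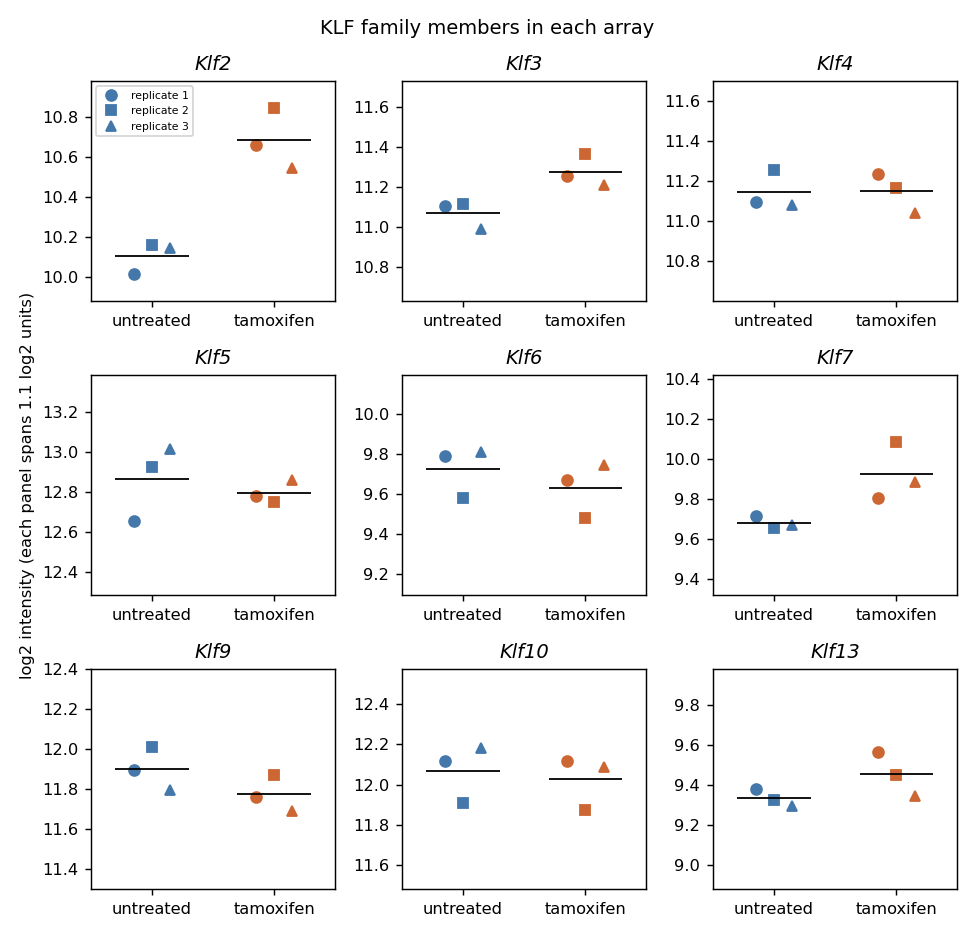
Log2 intensity (y axis, each panel spanning the same range) of each KLF member in the 3 untreated (blue) and 3 tamoxifen (orange) arrays, with symbols for replicate numbers and a line at each group mean. Klf2 stands clearly apart between the groups, Klf3 and Klf7 do so by a small gap, and the groups of the other members overlap.

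Of the naive-state factors Klf2, Klf4 and Klf5, Klf2 alone was called. Klf2 (probe set 10572800), which is also the flow-induced KLF of endothelium, was at 10.02, 10.16 and 10.15 in untreated cells and at 10.66, 10.85 and 10.54 after tamoxifen. Every tamoxifen array was above every untreated array, and the gap between the groups was wider than the range within either. The mean rose from 10.11 ± 0.08 to 10.68 ± 0.15 (SD, n = 3), which is 0.58 ± 0.09 (SE) on the log2 scale and 1.49-fold (95% confidence interval 1.30- to 1.71-fold, limma adjusted p = 0.00903). Klf2 ranked 241 of 19938 genes by p. It was higher in 3 of 3 replicate pairs, by 0.65, 0.68 and 0.40, and p was 0.1 by exact permutation (two-sided), a floor set by having 3 arrays a group. The call held whichever array was left out, with adjusted p-values of 0.0162 to 0.0354, but not when the fit took in all 35556 probe sets of the table, many of them without a listed gene (adjusted p = 0.0509).

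Since Klf2 is strongly expressed in endothelium and in some other differentiated cells, markers of other cell types were read beside it. Of 5 endothelial markers, Tek, the angiopoietin receptor, rose (log2 change 0.88 ± 0.15, limma adjusted p = 0.0133; called in 4 of the 6 leave-one-out fits, and with an adjusted p of 0.0692 over all probe sets), while Pecam1, Cdh5, Flt1 and Emcn were not called. The summed intensity of these 5 markers, on the log2 scale, lay at 11.06 to 11.10 in untreated and 11.23 to 11.45 in tamoxifen arrays. It rests mostly on the brightest, Pecam1 (mean 10.44 untreated, 10.40 tamoxifen) and Tek (8.86 and 9.73). Its rise thus largely repeats that of Tek and is not a separate sign of endothelial expression. Pecam1 had a log2 change of -0.03 ± 0.13 and Cdh5 of 0.16 ± 0.10. Cdh5 (mean 6.31 untreated, 6.47 tamoxifen) and Emcn (5.30 and 5.31) lay below the array medians of 7.19 to 7.26. The high level of Pecam1 was therefore not read as an endothelial signal. Of 5 measured mesoderm markers Kdr, the VEGF receptor, was called higher (0.26 ± 0.07, limma adjusted p = 0.0468), a call lost in 6 of 6 fits without 1 array. Kdr was dim, at 5.71, 5.68 and 5.63 in untreated and 5.93, 6.02 and 5.86 in tamoxifen arrays, below the array medians. The summed level of the mesoderm list overlapped between groups (9.57 to 9.81 against 9.35 to 9.68). Of 8 feeder-fibroblast, 6 primitive endoderm, 5 measured neuroectoderm and 6 trophoblast markers limma called 0. At an unadjusted p under 0.05, 0, 1, 2 and 2 were higher and 1, 1, 0 and 1 lower. Among all genes 7.78% were called, and 24.5% had an unadjusted p under 0.05 in either direction. With the replicate number as a block, where 17.4% of all genes were called, markers of each of these 4 lists were called. Of the feeder-fibroblast markers the surface protein gene Thy1 was lower (log2 change -0.32 ± 0.11, limma adjusted p = 0.0985, or 0.00725 with the block), while Col1a1, next by p, was not called in either fit (0.20 ± 0.09, adjusted p = 0.223). Of the endoderm markers the receptor gene Pdgfra was higher (0.36 ± 0.09, adjusted p = 0.0518, block 0.018) and the transcription factor gene Sox7 lower (-0.28 ± 0.08, adjusted p = 0.0603, block 0.041). Both neuroectoderm genes with a small p were higher with the block, the transcription factor gene Sox1 (0.29 ± 0.09, adjusted p = 0.0835, block 0.0211) and the neuronal tubulin gene Tubb3 (0.52 ± 0.19, adjusted p = 0.13, block 0.00204). Of the trophoblast markers Tfap2c was higher (0.27 ± 0.08, adjusted p = 0.0804, block 0.0258), and Ascl2 (-0.52 ± 0.18, adjusted p = 0.107, block 0.0106) and the keratin gene Krt7 (-0.26 ± 0.18, adjusted p = 0.433, block 0.0171) lower. The trophoblast marker Cdx2 also had a higher mean and an unadjusted p under 0.05. It was not called in either fit (0.14 ± 0.06, limma adjusted p = 0.176, block 0.121). The block also called the mesoderm gene Eomes lower (-0.57 ± 0.23, adjusted p = 0.174, block 0.00745). Pecam1, Cdh5, Krt7, Cdx2 and Eomes were picked after their values were seen. The summed levels were 9.94 to 10.18 against 10.03 to 10.14 for fibroblast, 9.90 to 10.17 against 9.92 to 10.00 for endoderm, 10.19 to 10.31 against 10.39 to 10.59 for neuroectoderm and 11.17 to 11.42 against 11.30 to 11.48 for trophoblast markers, untreated first. The endothelial and neuroectoderm sums thus lay wholly higher after tamoxifen. That of the 8 stem cell markers lay wholly lower by a narrow gap, at 16.064 to 16.149 in untreated and 15.973 to 16.055 in tamoxifen arrays. These sums add unlogged intensities, so the brightest genes of a list weigh most. RMA (robust multi-array average) values have no 0 and no detection call, and the part of these markers in the Klf2 result was not tested.

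The other naive-state factors were not called. Klf4 (probe set 10513008), a direct target of LIF and STAT3 signalling, was at 11.10, 11.26 and 11.08 in untreated and 11.24, 11.17 and 11.04 in tamoxifen arrays. The groups lay on top of each other, with a log2 change of 0.00 ± 0.08 (limma adjusted p = 0.984) and a 95% confidence interval of -0.17 to 0.18. Klf5 (probe set 10416777), which is needed in the early embryo for the inner cell mass and trophectoderm, was at 12.65, 12.92 and 13.01 in untreated and 12.78, 12.75 and 12.86 in tamoxifen arrays. The tamoxifen values fell inside the range of the untreated ones, and the change was -0.07 ± 0.09 (adjusted p = 0.704, interval -0.28 to 0.15). Untreated replicate 1 was the lowest array for both Klf2 and Klf5.

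The ratios between these 3 genes within an array were also compared. The log2 ratio of Klf2 to Klf4 was higher after tamoxifen by 0.57, and that of Klf2 to Klf5 by 0.64, without overlap of the groups in either. Klf4 and Klf5 themselves changed by 0.00 and -0.07. Both ratios therefore largely restate the Klf2 change of 0.58 and are no separate evidence for it. The ratio of Klf4 to Klf5 differed by 0.07, with overlapping groups. By exact permutation of the arrays, two-sided, p was 0.1, 0.1 and 0.6, or 0.15, 0.15 and 0.6 adjusted over the 3 ratios, and 0.1 is the lowest value this design can reach.

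Klf6 and Klf7, relatives that act mainly as activators, were not called either. Klf7 (probe set 10355141), known for its role in the outgrowth and survival of neurons, was at 9.71, 9.66 and 9.67 in untreated and 9.80, 10.08 and 9.89 in tamoxifen arrays. The untreated arrays were tightly grouped and all tamoxifen arrays lay above them, with tamoxifen replicate 2 the highest. The log2 change was 0.24 ± 0.08 (limma adjusted p = 0.0992, interval 0.06 to 0.43), and it was 0.16 without tamoxifen replicate 2 (adjusted p = 0.287). Klf7 passed the threshold when arrays were weighted by their quality (adjusted p = 0.0495) and not with the replicate number as a block (0.0563). Klf6 (probe set 10403352), an early-response gene and tumour suppressor, was at 9.79, 9.58 and 9.81 in untreated and 9.67, 9.48 and 9.74 in tamoxifen arrays. Replicate 2 was the lowest of Klf6 in both groups, the groups overlapped, and the change was -0.10 ± 0.09 (adjusted p = 0.568).

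Klf3 (probe set 10522051), the CtBP-dependent repressor, was at 11.11, 11.11 and 10.99 in untreated and 11.25, 11.37 and 11.21 in tamoxifen arrays. All tamoxifen arrays were above the untreated ones by a narrow gap. The log2 change was 0.21 ± 0.07, or 1.15-fold (limma adjusted p = 0.107). The differences within replicate pairs were 0.15, 0.25 and 0.22, and with the replicate number as a block Klf3 passed the threshold (adjusted p = 0.0442). In that fit 17.4% of all genes were called, 7.87% higher and 9.54% lower, and 2 of the 9 members, Klf2 and Klf3. Of the other KLF genes that work through CtBP, Klf8 had a log2 change of -0.01 ± 0.06 and Klf12 of 0.11 ± 0.15 (adjusted p = 0.959 and 0.705).

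None of the Sin3-recruiting members Klf9, Klf10 and Klf13 was called. Klf9 (probe set 10462091), a gene induced by thyroid hormone and glucocorticoids, was at 11.90, 12.01 and 11.80 in untreated and 11.76, 11.87 and 11.69 in tamoxifen arrays. The arrays of each group kept the same order by replicate number, so the groups overlapped although each pair was lower, with differences of -0.13, -0.14 and -0.11. The log2 change was -0.13 ± 0.08 (limma adjusted p = 0.361, or 0.163 with the replicate block). Klf10 (probe set 10428302), first described as a gene induced early by TGF-beta, was at 12.12, 11.91 and 12.18 in untreated and 12.12, 11.87 and 12.09 in tamoxifen arrays. Its replicate 2 was low in both groups, as for Klf6, and its change was -0.04 ± 0.09 (adjusted p = 0.826). Klf13 (probe set 10564290), an activator of the chemokine gene Ccl5 in T cells, was at 9.38, 9.33 and 9.30 in untreated and 9.57, 9.45 and 9.35 in tamoxifen arrays. Tamoxifen replicate 3 fell within the untreated range, and the change was 0.12 ± 0.07 (adjusted p = 0.35).

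**Figure D2:**
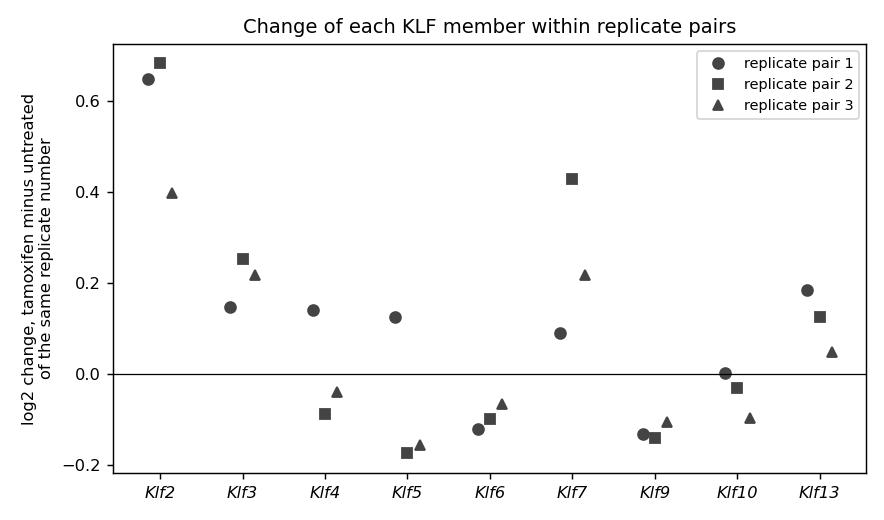
Log2 change (y axis) of each KLF member (x axis) between the tamoxifen and untreated arrays of the same replicate number, with a symbol for each of the 3 pairs. Klf2, Klf3, Klf7 and Klf13 are above 0 in all pairs, Klf6 and Klf9 below 0 in all pairs, and Klf4, Klf5 and Klf10 on both sides.

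Read by replicate pair, 4 members were higher in all 3 pairs and 2 lower in all 3, while 3 were mixed; 25.7% of all genes were higher and 26% lower in all pairs. For Klf6 and Klf9 the difference within each pair was smaller than the range among the untreated arrays. The unblocked fit counts that range as error. Neither was called with the block (adjusted p = 0.285 for Klf6).

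The rest of the family showed a single call, in the opposite direction to Klf2. Of the 8 other KLF genes measured (Klf1, Klf8, Klf11, Klf12, Klf14, Klf15, Klf16 and Klf17), 0 rose, Klf16 fell and 7 were not called. Their median log2 change was -0.07. Among all genes 3.79% were called higher and 3.99% lower. Klf16 (probe set 10370911), a relative of Klf9 and Klf13, was at 10.37, 10.36 and 10.35 in untreated and 9.92, 9.99 and 9.80 in tamoxifen arrays. The untreated arrays were nearly identical and all tamoxifen arrays lay below them. The fall was 1.37-fold (log2 change -0.46 ± 0.07, limma adjusted p = 0.0085), and the call held in 6 of 6 fits without 1 array and over all probe sets of the table (adjusted p = 0.0439). The muscle and liver factor Klf15 was also wholly lower, at 8.50 to 8.80 against 8.39 to 8.41, but was not called (-0.21 ± 0.09, adjusted p = 0.178).

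Of the 8 measured SP factors, the nearest relatives of the KLF family, limma called 0. A higher mean and an unadjusted p below 0.05 were found for 2 of them, and for 2283 of all 19938 genes. The changes of the SP factors ran from -0.09 to 0.35 with a median of 0.04. Sp5, a target of WNT signalling, had the largest value, at 6.82, 6.90 and 6.70 against 6.96, 7.32 and 7.18 (0.35 ± 0.10, limma adjusted p = 0.0654), and it passed with the replicate block (0.0183). Sp8, a factor of limb and brain development, was also wholly higher, at 5.76, 5.71 and 5.79 against 5.99, 5.88 and 5.94 (0.19 ± 0.06, adjusted p = 0.107, or 0.0592 with the block). The broadly expressed Sp1 and Sp3 had log2 changes of -0.04 ± 0.07 and 0.02 ± 0.06. Klf15, Klf8, Klf12, Sp1 and Sp3 were picked for mention after their values were seen, and Sp5 and Sp8 have the smallest p of their list.

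**Figure D3:**
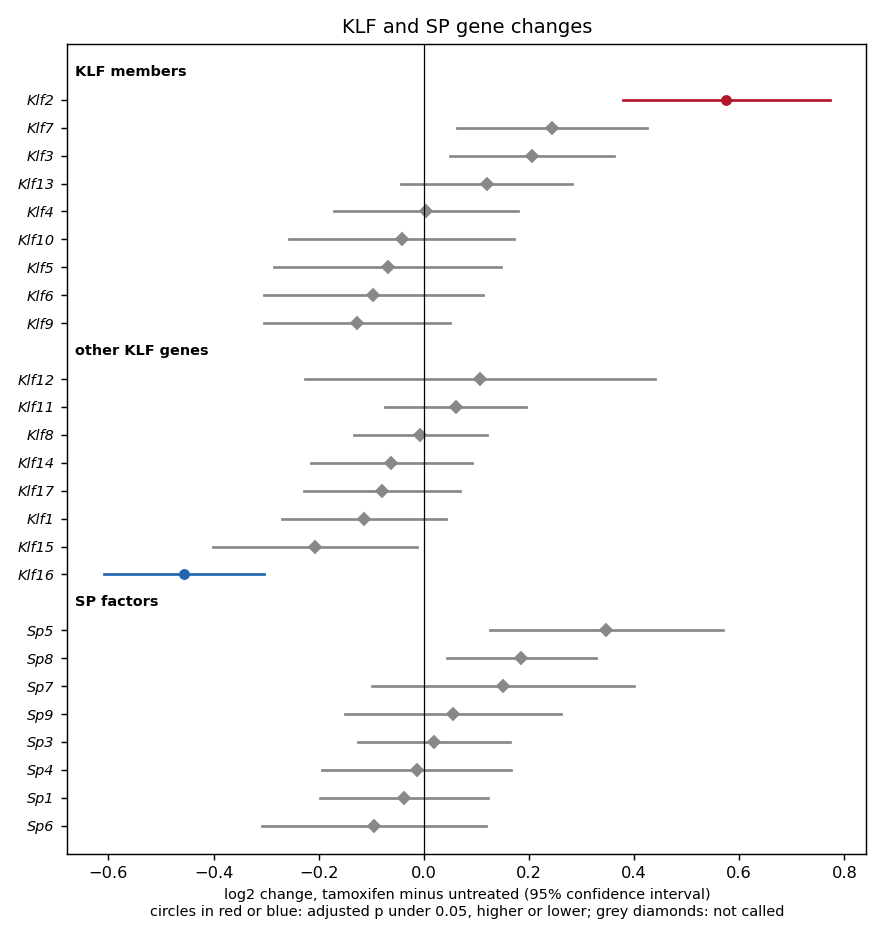
Log2 change of the 9 KLF members, the 8 other KLF genes and the 8 SP factors (x axis, point with 95% confidence interval); coloured circles are called genes and grey diamonds are not called. Klf2 is the only call to the right of 0 and Klf16 the only call to the left.

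Genes that act upstream of KLF factors were read next. LIF signals through Lifr and gp130 to the kinase Jak1 and to Stat3, which drives Klf4, while the MEK5-ERK5 cascade and MEF2 factors drive KLF2 in endothelium. Of 14 measured genes of these inputs, Il6st and Lif rose, Pim3 fell and 11 were not called, with a median log2 change of 0.06. With the replicate block 5 rose and 1 fell. Of all genes 7.78% were called, or 17.4% with the block. Il6st, which encodes gp130, was at 11.34, 11.21 and 11.26 in untreated and 11.75, 11.70 and 11.62 in tamoxifen arrays, with no overlap (0.42 ± 0.07, limma adjusted p = 0.00998). Il6st was called in 6 of 6 fits without 1 array, with an adjusted p of 0.0474 over all probe sets of the table. Lif rose by 0.34 ± 0.08 (adjusted p = 0.0323) and Pim3, a kinase gene induced by STAT3, fell by 0.41 ± 0.09 (log2, adjusted p = 0.0248), but these were called in only 1 and 2 of the 6 leave-one-out fits and not over all probe sets (0.0973 and 0.0874). Lif was much dimmer than Il6st, at 6.89 to 7.16 in untreated and 7.34 to 7.41 in tamoxifen arrays, near the array medians of 7.19 to 7.26.

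Stat3 itself had a log2 change of 0.09 ± 0.07 and its feedback target Socs3 of -0.10 ± 0.09 (limma adjusted p = 0.477 and 0.535). Lifr, at 0.36 ± 0.10, just missed the threshold (adjusted p = 0.0548) and passed it with the block (0.00748). On the ERK5 side, Map2k5 and Mapk7, which encode MEK5 and ERK5, had log2 changes of -0.17 ± 0.07 and -0.04 ± 0.06 (adjusted p = 0.201 and 0.724). Mef2a, a MEF2 factor, had a log2 change of 0.24 ± 0.08 (adjusted p = 0.0918, or 0.0237 with the block), with all tamoxifen arrays above the untreated ones. Mef2d, of similar brightness, had a log2 change of 0.01 ± 0.08 (limma adjusted p = 0.951, block 0.916). The dim Mef2c was also wholly higher but was called in neither fit (0.11 ± 0.06, limma adjusted p = 0.296, block 0.226). Stat3, Socs3, Lifr, Map2k5, Mapk7, Mef2a, Mef2c and Mef2d fall outside the naming rule and were picked after their values were seen.

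Of 15 measured cofactors and ubiquitin ligases of KLF proteins, Kat2b rose, 0 fell and 14 were not called. Their median log2 change was 0.00. With the block 2 rose and 1 fell. The shares called among all genes were 7.78%, and 17.4% with the block. Kat2b, the acetyltransferase PCAF, rose 1.41-fold (0.50 ± 0.09, limma adjusted p = 0.0157), was called in 4 of 6 fits without 1 array, with an adjusted p up to 0.0702, and had an adjusted p of 0.0692 over all probe sets of the table. The corepressors that the Klf3 and Klf9 types depend on were not called: Ctbp1 had a log2 change of 0.13 ± 0.07, Ctbp2 of -0.14 ± 0.09, and the 2 Sin3 scaffold genes lay on either side of 0, Sin3a with -0.11 ± 0.06 and overlapping groups and Sin3b with 0.18 ± 0.06 and all tamoxifen arrays above the untreated ones (limma adjusted p = 0.36 and 0.13). Sap30, a subunit of the Sin3 complex, had a lower mean (-0.40 ± 0.11, adjusted p = 0.0647) and passed with the block (0.0227). Ctbp1, Ctbp2, Sin3a, Sin3b and Sap30 were also picked after their values were seen.

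**Figure D4:**
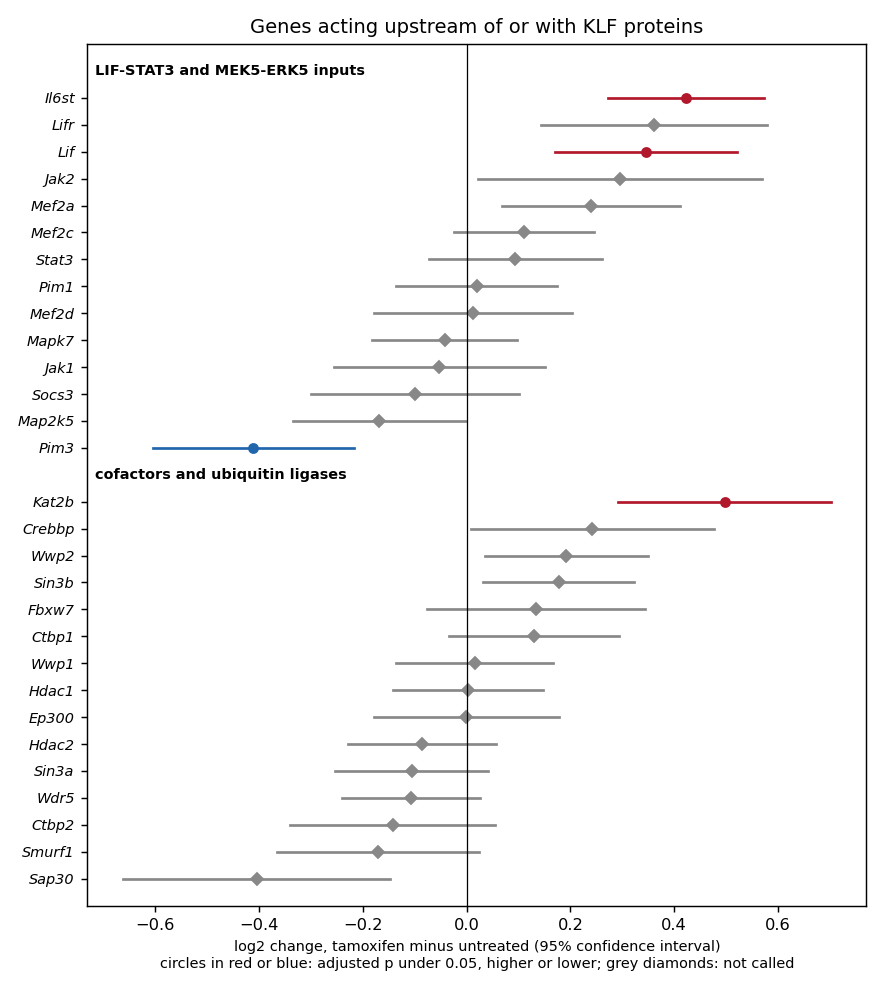
Log2 change (x axis, point with 95% confidence interval) of genes of the LIF-STAT3 and MEK5-ERK5 inputs and of cofactors and ubiquitin ligases of KLF proteins; coloured circles are called genes. Il6st, Lif and Kat2b lie to the right of 0 and Pim3 to the left, and the other genes are not called.

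Of 13 measured genes described as targets of Klf2, Klf4 and Klf5 in embryonic stem cells, Lefty1 rose, 0 fell and 12 were not called, with a median log2 change of 0.06; the share called is near the 7.78% of all genes. Before adjustment, p was below 0.05 for 3 genes with a higher mean and 1 with a lower mean, beside 24.5% of all genes in either direction. All tamoxifen arrays lay above the untreated ones for 5 genes and below them for 1, beside 14.5% and 14.8% of all genes. Lefty1, a Nodal inhibitor that Klf4 is known to activate together with Oct4 and Sox2, was at 10.94, 11.57 and 11.38 in untreated and 12.45, 12.64 and 12.47 in tamoxifen arrays (1.23 ± 0.14, limma adjusted p = 0.00389). Lefty1 is also described as a microRNA target, and its groups were far apart. The other 4 wholly higher genes were not called: Tfcp2l1, a naive-state factor, had a log2 change of 0.20 ± 0.06, Fbxo15 of 0.19 ± 0.07, Sall4 of 0.10 ± 0.06 and Nanog of 0.07 ± 0.06 (limma adjusted p = 0.0873, 0.108, 0.332 and 0.52). Zfp42, the stem cell marker Rex1, was the wholly lower one, with -0.19 ± 0.06 (adjusted p = 0.0876). These 5 genes were picked after their values were seen.

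Of 12 measured genes described as KLF targets in other cells, Ccnd1 and Eng rose, C1qtnf12 fell and 9 were not called. Their median log2 change was 0.05. With the block 3 rose and 2 fell. Beside these stand 7.78% of all genes called, and 17.4% with the block. The G1 cyclin gene Ccnd1 rose by 0.56 ± 0.10 (limma adjusted p = 0.0158; it was called in 4 of the 6 leave-one-out fits) and Eng, a TGF-beta co-receptor described as a target of KLF6, by 0.39 ± 0.08 (adjusted p = 0.0205, called in 2 of 6). C1qtnf12, which encodes adipolin and is repressed by KLF3 in mouse adipose tissue, was at 10.40, 10.25 and 9.56 in untreated and 9.55, 8.97 and 8.61 in tamoxifen arrays. The groups were parted by only a small gap between untreated replicate 3 and tamoxifen replicate 1, and the change of -1.02 ± 0.26 (adjusted p = 0.0484) held in 2 of the 6 leave-one-out fits. Over all probe sets of the table the adjusted p was 0.0724 for Ccnd1, 0.0767 for Eng and 0.149 for C1qtnf12. The KLF2 target of T cells and endothelium S1pr1 had a log2 change of 0.19 ± 0.10 (limma adjusted p = 0.276). Of the same list, Thbd had a change of 0.09 ± 0.12 (adjusted p = 0.685). Nos3 and Itgb7 went the other way, with -0.24 ± 0.13 and -0.19 ± 0.10 (adjusted p = 0.304 and 0.3). Nos3 was called lower with the block (0.0453). S1pr1, Thbd, Nos3 and Itgb7 were picked after their values were seen.

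**Figure D5:**
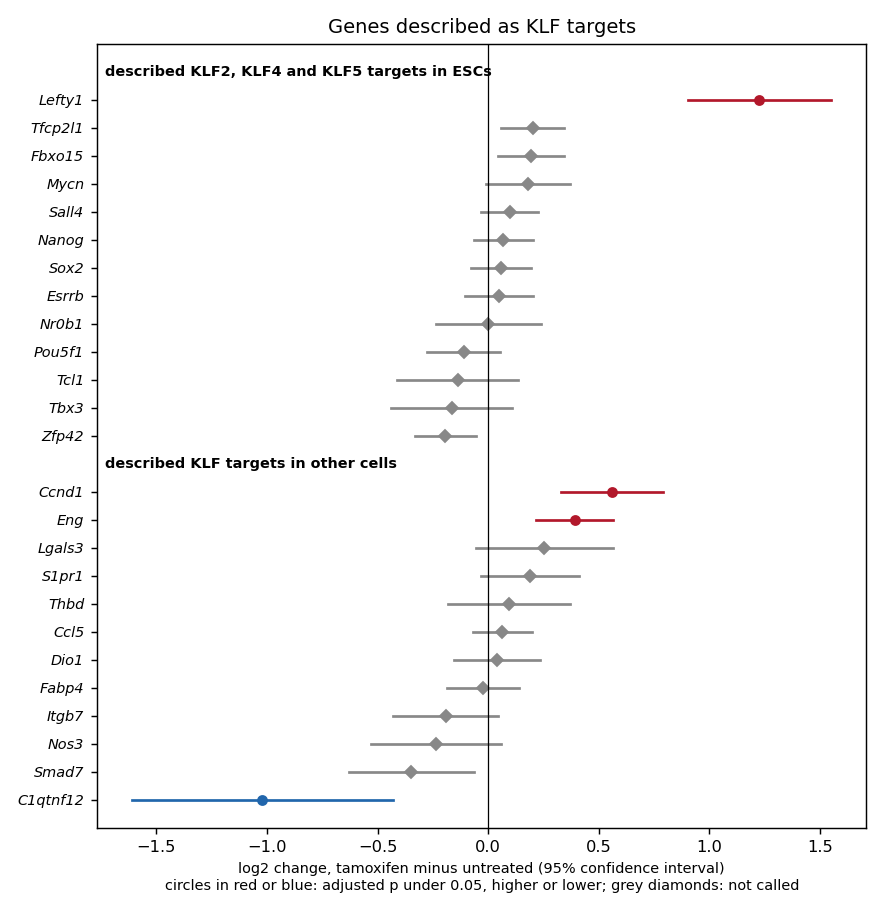
Log2 change (x axis, point with 95% confidence interval) of genes described as KLF targets in embryonic stem cells and in other cells; coloured circles are called genes. Lefty1, Ccnd1 and Eng lie to the right of 0 and C1qtnf12 to the left, while most described targets have intervals that include or come close to 0.

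The genes whose values followed Klf2 most closely over the 6 arrays were Vangl1, a planar cell polarity gene (Pearson r = 0.997), the innate immune receptor Tlr2 (0.994) and the protease inhibitor Serpinb1a (0.993), among 2939 genes with a range of at least 0.5. They rose by 0.43 ± 0.08, 0.47 ± 0.09 and 0.33 ± 0.07 (limma adjusted p = 0.015, 0.0165 and 0.0268). Since they were picked for following Klf2, which differs between the groups, these rises and p-values follow from the choice and are no separate evidence. With 6 arrays in 2 groups such values of r are easily reached, and 128 of the 2939 genes had an r over 0.95 with Klf2.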

How the data were processed

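Log2 intensities were deposited by the authors. The submitters' processing notes name RMA and Affymetrix Expression Console 1.2, and values of 3.18 to 14.6 fit a log2 scale. RMA corrects background, quantile-normalises the arrays and summarises each probe set, which hides a shift common to most transcripts and shrinks differences of dim probe sets. The array annotation's genome build is not given in the sources used here. The value table held 0 columns from other samples.

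Among 35556 probe sets, 21789 had a single symbol in the platform annotation; the brightest per gene gave 19938 genes. All 9 members matched RefSeq by Entrez ID. The test was limma's (version 3.58.1, R 4.3.3; lmFit, eBayes, two-sided, no filter); arrays are few and limit the precision. On simulated arrays of 19938 genes it recovered 68% of changes of 0.5 and 95% of changes of 1 on the log2 scale, with 7 unchanged genes called. The simulation changed 100 genes at each size, while 1552 genes were called in the data. Its noise was independent between arrays, without shared replicate effects, so these shares need not hold for the data.

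Same-numbered arrays deviated together (correlations 0.356, 0.345 and 0.389 across genes), so the numbers were taken as pairs, and the replicate block was fitted as an alternative. Arrays of a group correlated at 0.996 to 0.998. The labels name no batch. Members and gene lists were chosen with earlier results of these data known. Named genes are all members, Dicer1, the called genes of each list (up to 3 per direction, or the 2 smallest p where none was called; other KLF and SP genes as a range), and the 3 genes most correlated with a called member; others are said to be picked later. Alternatives were the block, other probe set choices, a filter on the dimmest 40%, median centring, renewed quantile normalisation, cyclic loess, another variance prior, array weights, thresholds of 0.01 and 0.1, and leaving out each array. Listed genes without a single-symbol probe set were not analysed here.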

Additional observations from a re-analysis of the deposited data

How the results depend on the processing

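The rise of Klf2 kept its direction under all alternatives run (0.56 to 0.62 on the log2 scale, and 0.49 to 0.65 when 1 array was left out) and its call in 9 of 10 other settings and 6 of 6 fits without 1 array. It was not called over all probe sets of the table (0.58, adjusted p = 0.0509), where 0 members and 336 features were called. With the replicate block 2 members and 3472 genes were called, Klf3 being added (0.21, adjusted p = 0.0442); no other member changed its call under the block. With array weights 2 members and 2511 genes were called, Klf7 being added (0.27, adjusted p = 0.0495). A threshold of 0.1 called 2 members and 2793 genes, and a threshold of 0.01 called 1 and 276. Leaving out 1 array gave 1 member each time and 355 to 1580 genes, the fewest without tamoxifen replicate 2; without untreated replicates 2 and 3 and tamoxifen replicate 3 there were 516, 908 and 539. Klf4 turned sign with median centring (-0.0030) and array weights (-0.045) and ran from -0.040 to 0.059 without 1 array, Klf5 from -0.17 to 0.0068 and Klf10 from -0.12 to 0.034, none of them called. The alternatives planned for further probe sets of a member were not run, since each member had 1. The cause of these shifts was not tested. Only 6 arrays bear on each value, which limits the calling of small changes.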
